A study of Mus musculus with 6 samples.

Results

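The genes described here were 10 genes of the goblet cell and its mucus, Muc2, Fcgbp, Clca1, Zg16, Tff3, Agr2, Spink4, Ern2, Retnlb and Rep15, out of 32285 genes in the count tables. They were chosen by name, and all 10 had at least 1 count in each of the 6 libraries. Epithelial cells of mouse ileal crypts, sorted for the surface protein EpCAM, were profiled by droplet-based single-cell RNA sequencing, in which a unique molecular identifier (UMI) marks each captured transcript. The Fpr2f/f group had 3 libraries from mice with Fpr2, a formyl peptide receptor gene, flanked by loxP sites and left in place, in a line on the C57BL/6J background. The Fpr2VKO group had 3 libraries from mice that carried the same floxed allele and a Cre recombinase driven by the Villin promoter, which is active across the intestinal epithelium. Both groups therefore shared the floxed allele, as the study described its mice. The genotype label of the Fpr2f/f libraries was WT, without mention of that allele. Mice were 8 to 12 weeks old and matched between groups for age and sex, and the sex of each library was not given. The experiment was described as 3 mice per group, which the labels did not tie to single libraries, so p-values measured the spread between libraries. Fpr2 itself had 0 UMIs in every library of both groups, so the deletion could not be checked from the counts.

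Goblet cells are secretory cells that release the gel-forming mucin MUC2, which assembles into large polymers and, with its partner proteins, forms the layer that separates bacteria from the epithelium. The mucin is folded and linked by disulfide bonds in the endoplasmic reticulum, with help from AGR2 and under watch of the stress sensor IRE1-beta, the product of Ern2, and it is then packed with other secreted proteins into granules. FCGBP, CLCA1 and ZG16 are abundant partners of MUC2 in mucus, whereas TFF3, SPINK4 and RELM-beta, the product of Retnlb, are small secreted proteins. Rep15 encodes an effector of the traffic protein RAB15.

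RefSeq start regions were on hand for Muc2, Fcgbp and Agr2, and these are shown because their transcripts were high in the same cell class below. Each holds 300 bases of build GRCm38.p6, from 250 bases before the start to 50 after it, at chr7:141690090-141690389 for Muc2, chr7:28070986-28071285 for Fcgbp and chr12:35992675-35992974 for Agr2, all on the forward strand. Capitals mark the E-box letters CAGCTG, which read the same on both strands, and the letters TATAA or their reverse complement TTATA.
Muc2: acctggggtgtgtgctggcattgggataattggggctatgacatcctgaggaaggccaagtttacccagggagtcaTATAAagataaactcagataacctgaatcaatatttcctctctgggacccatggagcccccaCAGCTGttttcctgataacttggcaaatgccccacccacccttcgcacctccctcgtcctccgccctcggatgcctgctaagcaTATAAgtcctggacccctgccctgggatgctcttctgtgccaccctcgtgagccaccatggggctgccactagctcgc
Fcgbp: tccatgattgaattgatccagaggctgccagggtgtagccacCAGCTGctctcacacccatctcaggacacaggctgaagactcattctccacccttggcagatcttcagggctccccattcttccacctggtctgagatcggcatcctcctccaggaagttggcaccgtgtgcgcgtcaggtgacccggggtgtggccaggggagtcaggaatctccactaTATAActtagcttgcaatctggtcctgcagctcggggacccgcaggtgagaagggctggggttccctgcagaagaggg
Agr2: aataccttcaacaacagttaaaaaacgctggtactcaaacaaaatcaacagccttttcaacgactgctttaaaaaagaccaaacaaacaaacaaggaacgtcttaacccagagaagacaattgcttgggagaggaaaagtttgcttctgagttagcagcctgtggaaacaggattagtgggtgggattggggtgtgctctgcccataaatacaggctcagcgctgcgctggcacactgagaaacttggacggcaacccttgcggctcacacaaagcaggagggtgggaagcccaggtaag
Muc2 and Fcgbp each held 1 CAGCTG, and both had TATAA starting 28 bases before the start, while neither set of letters was in the Agr2 window. Of all 32851 RefSeq start regions of that length, 16.3% held CAGCTG and 24.9% held TATAA or TTATA. The letters GATAA or TTATC, present in 25.4% of all windows, were found 4 times in the Muc2 window and not in those of Fcgbp or Agr2. A match is a match of letters and was not taken as a binding site. Clca1, Zg16, Tff3, Spink4, Ern2, Retnlb and Rep15 had no entry.

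A barcode was kept as a cell with at least 1000 UMIs, at least 500 genes and at most 20% mitochondrial UMIs. The libraries held 90142126 to 189516114 UMIs, and the mitochondrial limit removed 65.7% to 90.1% of the barcodes that passed the other limits, which left 16676 cells after doublet removal in 20 clusters. Clusters were named from markers that excluded the 10 genes, and the 10 genes were also left out of clustering. A pair of clusters, with 911 and 669 cells, had all 13 goblet markers higher than the remaining cells and were called goblet-like (1580 cells). Barcodes with fewer than 100 UMIs held 7.25% to 13.1% of each library's UMIs and are called free RNA, the pool that reaches every droplet. Between 0 and 23 kept barcodes were shared by any pair of libraries, where independent draws would give 1.80 to 5.68. The pairs that shared most were Fpr2f/f replicate 2 with Fpr2VKO replicate 1 (23 against 4.54), with Fpr2VKO replicate 2 (22 against 5.54) and with Fpr2f/f replicate 1 (21 against 5.29). Relative to that expectation, replicate 1 of Fpr2f/f with replicate 1 of Fpr2VKO was highest (15 against 2.54). Replicate 3 of Fpr2f/f with replicate 3 of Fpr2VKO shared 9 against 2.245. The 242 cells with such a barcode were 1.45% of all cells, and without them the count of the 10 genes called was 0 in every population of cells, as with them.

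The 10 genes together held 12.3%, 13.8% and 12.2% of the UMIs of goblet-like cells in Fpr2f/f replicates 1, 2 and 3, and 11.2%, 11.8% and 11% in Fpr2VKO replicates 1, 2 and 3. In free RNA they held 0.452% to 0.940%. Of all UMIs of a gene in epithelial cells, goblet-like cells held 95.4% ± 1.11 (SD, n = 6 libraries) for Zg16, 94.8% ± 0.956 for Clca1 and 92.2% ± 1.01 for Fcgbp. The share was 86.7% ± 3.30 for Agr2, 84.6% ± 2.34 for Tff3, 83.2% ± 6.11 for Rep15 and 82.6% ± 4.85 for Muc2. It was lower for Ern2 (74.2% ± 5.51), and lowest by mean for Spink4 (46.4% ± 8.25), where it ran from 36.9% to 60.1% and was most of the UMIs only in Fpr2f/f replicate 1 (60.1%) and Fpr2VKO replicate 1 (50.6%). Retnlb, with few UMIs, was at 46.6% ± 32.2, from 5.09% to 79.4%. Because classes were set from clusters of these same cells, these values are a description and were not tested.

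Of the mucin and its partners, Muc2 (ENSMUSG00000025515, chr7:141690340-141754693 of GRCm38, forward strand) was at 7304, 8147 and 8481 CPM (UMIs of the gene per 1000000 UMIs of the class) in goblet-like cells of the Fpr2f/f libraries, against 7238, 7171 and 7703 CPM in those of the Fpr2VKO libraries. The groups overlapped, and the mean over 6 libraries was 20.5 times the level in free RNA (range 15.9 to 25.2). In Paneth-like cells, the antimicrobial cells of the crypt base, Muc2 was at 664 ± 149 CPM, 1.77 times free RNA, and every library there was above its own free RNA. In enterocyte-like cells, the absorptive cells, it was at 35.6 CPM, or 0.0916 times free RNA.

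Fcgbp (ENSMUSG00000047730, chr7:28071236-28120862, forward strand) was at 12297 ± 1551 CPM in goblet-like cells, 26.2 times free RNA. Its libraries ran from 10504 to 14691 CPM with both groups spread over that range. Outside goblet-like cells its highest ratio among the named epithelial classes was 0.670 times free RNA, in enteroendocrine-like cells, where 5 of 536 cells held 36.0% of its UMIs.

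Clca1 (ENSMUSG00000028255, chr3:145003817-145032776, reverse strand), a secreted protease of mucus, was at 2902 ± 410 CPM in goblet-like cells, and Zg16 (ENSMUSG00000049350, chr7:127050156-127087328, reverse strand), a lectin that binds bacterial cell walls, was at 26048 ± 2585 CPM. Their ratios to free RNA in goblet-like cells were 27.6 and 27.9. In Paneth-like cells they were 0.0928 and 0.0672, so both genes were below free RNA in the same cells that held Muc2 above it. In enteroendocrine-like cells 5 cells held 78.3% of the Zg16 UMIs and 74.3% of the Clca1 UMIs.

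Among the small secreted proteins, Tff3 (ENSMUSG00000024029, chr17:31125306-31129646, reverse strand), a trefoil peptide of mucosal repair, was at 27799 ± 3613 CPM in goblet-like cells, 16.7 times free RNA. In enteroendocrine-like cells Tff3 was at 1403 CPM, 0.872 times free RNA with a range of 0.538 to 1.34, and its UMIs there were spread over 405 of 536 cells. Among the 9 genes other than Retnlb that ratio was second in these cells to that of Rep15 (2.39), and those of Zg16 (0.154), Muc2 (0.192) and Spink4 (0.214) were the lowest.

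Spink4 (ENSMUSG00000028415, chr4:40920052-40931395, forward strand), a Kazal-type protease inhibitor, had the highest ratio to free RNA outside goblet-like cells of the 9 genes other than Retnlb. It was at 25841 ± 4587 CPM in goblet-like cells (14.5 times free RNA) and at 16458 ± 3973 CPM in Paneth-like cells (9.34 times free RNA, range 6.34 to 16.0). At 2000 UMIs per cell, as described below, a Spink4 UMI was found in 99.0% of Paneth-like cells and in 30.6% of those called enterocyte-like, a type that should not express it, and the 5 richest of the 959 Paneth-like cells held 5.39% of its UMIs there. Spink4 made up 82.3% to 87.7% of the UMIs of the 10 genes in Paneth-like cells, against 17.5% to 25.8% in goblet-like cells and 23.7% to 36.1% in free RNA. The defining markers of goblet cells summed to 217 to 368 CPM in Paneth-like cells and to 2843 to 3040 CPM in goblet-like cells.

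Retnlb (ENSMUSG00000022650, chr16:48816856-48818892, forward strand), whose product is an antibacterial protein induced by microbes and immune signals, was near the limit of detection. In all, 88 UMIs lay in goblet-like cells, in 25 of 1580 cells. Paneth-like cells held 242, of which 203 were in Fpr2f/f replicate 3, and a pair of cells there held 89 and 75. The other 5 libraries had 2 to 12 Retnlb UMIs in Paneth-like cells.

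For folding and traffic, Agr2 (ENSMUSG00000020581, chr12:35992907-36004087, forward strand), a disulfide isomerase of the endoplasmic reticulum, was at 17278 ± 2161 CPM in goblet-like cells and at 855 ± 213 CPM in Paneth-like cells, 24.8 and 1.25 times free RNA, the latter with a range of 0.701 to 1.79. Ern2 (ENSMUSG00000030866, chr7:122169893-122186207, reverse strand) was at 165 ± 23.9 CPM in goblet-like cells, 21.3 times free RNA. Rep15 (ENSMUSG00000040121, chr6:147032584-147034245, forward strand) was at 341 ± 46.8 CPM, 33.9 times free RNA. In Paneth-like cells Ern2 and Rep15 were at 1.87 and 1.95 times free RNA, each above free RNA in every library. Rep15 was higher relative to free RNA in enteroendocrine-like cells, at 2.39 times (range 0.834 to 5.34), from 157 UMIs in 48 of 536 cells, of which 5 cells held 43.3%. In transit-amplifying-like cells, the dividing progenitors, Ern2 had a ratio of 1.18 (range 0.852 to 1.75), the highest of the 9 genes other than Retnlb there. Another cluster, of 1353 cells with a median of 34428 UMIs, had all 8 transit-amplifying markers higher and was left unnamed. In that cluster the same 9 genes lay between 0.0396 and 0.340 times free RNA.

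**Figure D1:**
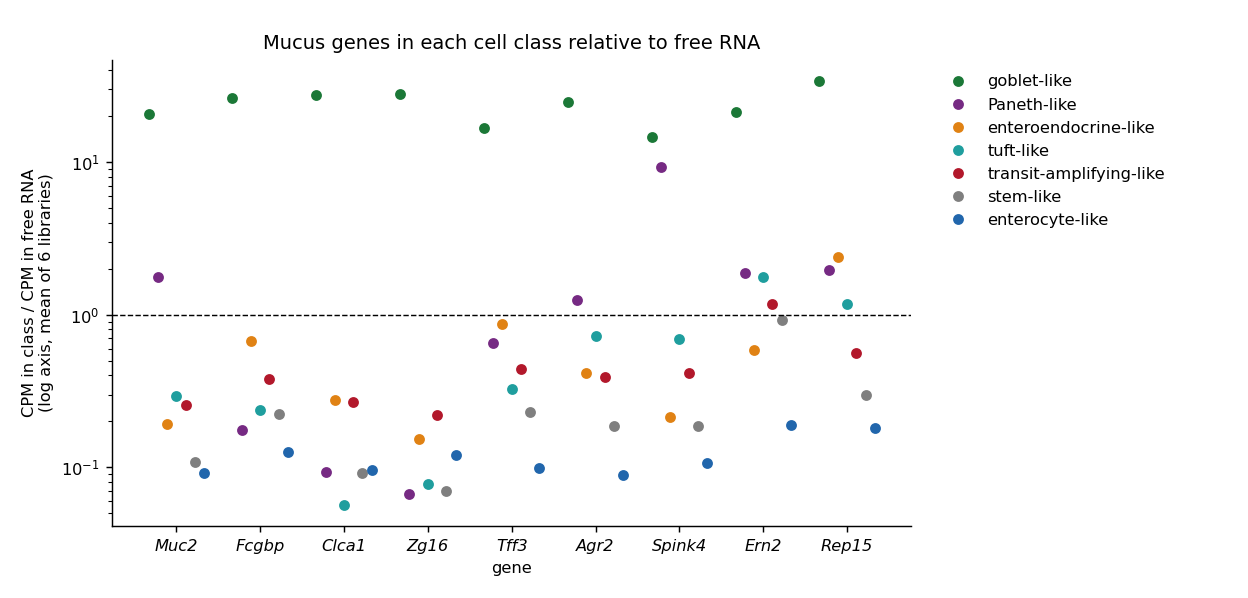
Each point is the level (CPM) of 1 gene in 1 cell class divided by its level in free RNA of the same library, as the mean of 6 libraries on a log axis, with the dashed line at a ratio of 1. Goblet-like cells lie between 14.5 and 33.9 for all 9 genes, Paneth-like cells reach 9.34 for Spink4, and enterocyte-like cells lie between 0.0889 and 0.190. Retnlb is left out because of its low counts.

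The plot of ratios by class shows how alike the 9 genes other than Retnlb were in enterocyte-like cells, from 0.0889 to 0.190 times free RNA, and how unlike in Paneth-like cells, from 0.0672 to 9.34. The enterocyte-like class pooled clusters of unequal depth. Those 9 genes were at 0.247 to 0.516 times free RNA in a cluster with a median of 2636 UMIs. In another, with a median of 32376 UMIs, they were at 0.0349 to 0.0932. Some values rested on few cells. In tuft-like cells, a chemosensory class of 354 cells, 5 cells held 90.4% of the Agr2 and 88.4% of the Spink4 UMIs, at ratios of 0.730 and 0.695. Rep15 had a ratio of 1.18 there from 23 UMIs in 4 cells, and Ern2 one of 1.77 from 27 UMIs in 20 cells. A shallow cluster of 879 unnamed cells with a median of 2271 UMIs differed between libraries, with 1.31% of UMIs from the 10 genes in Fpr2VKO replicate 2 and 0.412% to 0.493% in the other 5 libraries.

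To compare cells of unequal depth, each was thinned to 2000 UMIs, which left 1340 goblet-like cells. A UMI of Tff3 was then found in 100% of goblet-like cells, of Spink4 in 99.6%, of Fcgbp in 98.2%, of Agr2 in 98.0% and of Muc2 in 96.6%. Zg16 was found in 79.8% and Clca1 in 74.0%. The same measure in enterocyte-like cells, which should lack these genes, gave 24.4% for Tff3, 30.6% for Spink4, 17.5% for Zg16 and 3.62% for Clca1. Before thinning, the median depth per library was 2712 to 7127 UMIs in goblet-like cells and 1946 to 15778 in enterocyte-like cells. Unthinned, Zg16 was found in 81.6% and Clca1 in 76.9% of goblet-like cells. Rep15 (42.1%) and Ern2 (37.6%) were found in fewer goblet-like cells, and Retnlb in 0.546%.

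Single goblet-like cells differed widely in how much mucus RNA they held. The 10 genes took a median of 9.93% of a cell's UMIs, with quartiles at 5.80% and 14.9% and the extremes at 0.200% and 38.6%. Outside goblet-like cells the median was 0.05%. Within libraries, Clca1 and Zg16 had the highest Pearson correlation over goblet-like cells (mean r = 0.72, from 0.64 to 0.79 over 6 libraries), followed by Fcgbp with Tff3 (0.70) and Zg16 with Tff3 (0.69). Ern2 was near 0 with Muc2 (0.01) and lower with Agr2 (-0.27). The points are cells that share a library and a fixed total, so the correlations are descriptions.

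The goblet-like cells also differed by the markers of dividing cells. At 2000 UMIs per cell, 301 goblet-like cells had at least 2 UMIs of the 8 transit-amplifying markers and 1039 had fewer. Zg16 averaged 14.6 ± 5.50 UMIs per 2000 in the first set and 46.6 ± 4.50 in the second (SD, n = 6 libraries). Clca1 averaged 2.31 and 5.58, Muc2 8.44 and 15.7, Fcgbp 16.1 and 29.8, and Rep15 0.372 and 0.688. Agr2 averaged 16.0 and 26.2, Spink4 34.6 and 54.0, and Tff3 40.4 and 61.4, so these 3 differed less as a ratio. These 8 genes were lower in the marker-bearing cells in 6 of 6 libraries. Relative to the other goblet-like cells of the same library, the marker-bearing cells held 30.9% as much Zg16 (range 20.6% to 45.6%) and 65.6% as much Tff3 (56.1% to 72.6%). Ern2 averaged 0.494 and 0.567 UMIs and was lower in 4 of 6 libraries. No test was run, and the part of doublets between goblet-like and dividing cells was not tested.

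**Figure D2:**
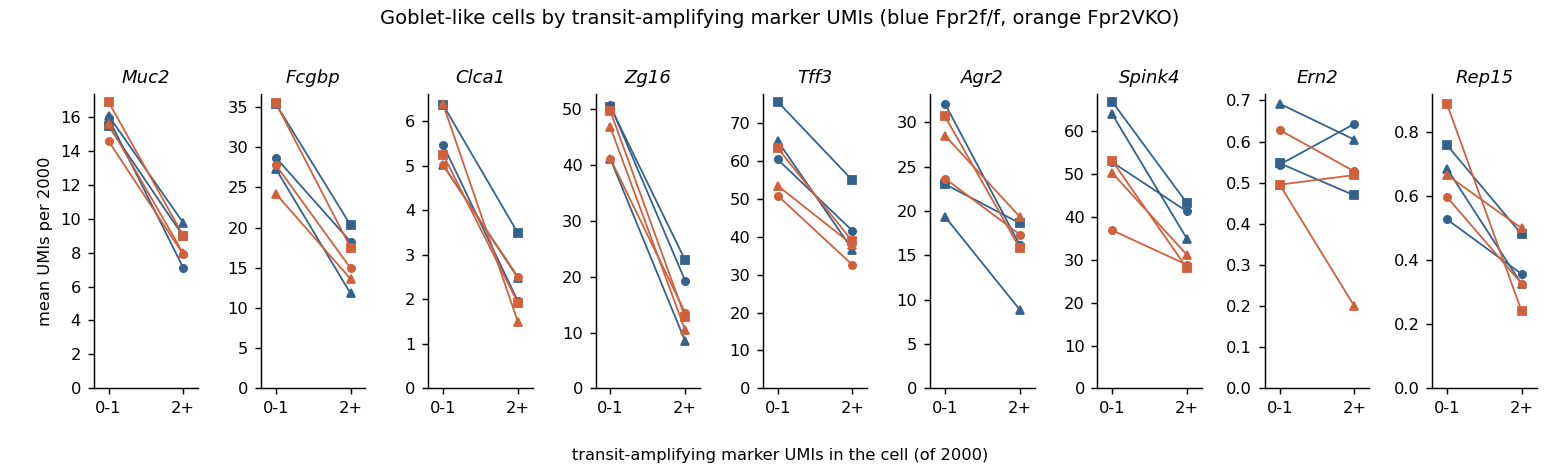
Mean UMIs per 2000 in goblet-like cells with 0 to 1 or with at least 2 UMIs of transit-amplifying markers, with 1 line per library (circles, squares and triangles for replicates 1, 2 and 3, each axis starting at 0). Lines fall in all 6 libraries for every gene drawn but Ern2, which falls in 4.

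A search for genes with a like pattern used 54 sums of cells, each a class in a library, and 5816 genes. The highest Pearson correlations with the mean log2 level of the 10 genes, among other genes, were those of Pla2g10 (0.95), a secreted phospholipase, Klk1 (0.93), a kallikrein protease, Capn9 (0.93), a calpain protease, and Sval1 (0.92). Tpsg1 (0.92), Bcas1 (0.92), Spdef (0.90), a goblet cell transcription factor, Slc2a10 (0.90), Fer1l6 (0.90) and Txndc5 (0.90), a disulfide isomerase, followed. Pla2g10, Klk1, Capn9, Tpsg1, Bcas1 and Spdef were also among the markers that named the goblet-like class, so their place in the order is a description only.

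The question for the groups was whether loss of Fpr2 from the epithelium went with a change in these genes or in the cells that carry them. Goblet-like cells were 9.38%, 8.37% and 10.4% of epithelial cells in Fpr2f/f replicates 1 to 3, against 10.9%, 10.8% and 8.85% in Fpr2VKO replicates 1 to 3. The groups overlapped, with means of 9.38% ± 1.01 and 10.2% ± 1.15 (SD, n = 3 each, exact two-sided permutation p = 0.5, where 0.1 is the smallest p that 3 against 3 allows). Such shares depend on the mitochondrial limit, which removed most barcodes, and at a limit of 40% the means were 3.82% and 3.09%, with the order turned. The main limit removed 78.02%, 65.69% and 70.87% of barcodes that passed the other limits in Fpr2f/f replicates 1 to 3. In Fpr2VKO replicates 1 to 3 it removed 90.09%, 76.13% and 85.64%, and the groups overlapped. At 40% the largest cluster, named Paneth-like (12070 cells, median 1424 UMIs), held 4131 and 4824 cells of Fpr2VKO replicates 1 and 3. It held 471 to 951 cells of each other library, and its part in the turned order was not tested. At a minimum of 2000 UMIs per cell the difference was 1.81 percentage points, against 0.796 here, with an exact p of 0.2.

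In goblet-like cells none of the 10 genes passed an adjusted p of 0.05 in edgeR's quasi-likelihood test by group alone, where 17 of 10408 genes, or 0.163%, did. At an unadjusted p under 0.05 there were 3, Spink4, Ern2 and Tff3. Estimates were below 0 for 8 of the 10 genes, with a median log2 fold change of -0.14, beside 49.3% of all genes tested and a median of 0.00.

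Spink4 was at 26809, 30216 and 31415 CPM in goblet-like cells of the Fpr2f/f libraries, against 19617, 24963 and 22026 CPM in those of the Fpr2VKO libraries. All 3 Fpr2VKO libraries were below all 3 Fpr2f/f libraries, as for 4.21% of the 10408 genes tested, and groups were apart in either direction for 12.6%. The log2 fold change was -0.45 ± 0.12 (SE), with an adjusted p of 0.220 in edgeR's test. DESeq2 gave the same log2 fold change with an adjusted p of 0.0326, and Spink4 was the 1 gene of the 10 it called, where it called 0.211% of genes. With the replicate number as a block, edgeR's test also called Spink4 alone of the 10, where it called 39 of 10408 genes. The median per cell moved with the sums, at 47, 56 and 50 UMIs per 2000 in the Fpr2f/f libraries, against 29, 43 and 37 in the Fpr2VKO libraries.

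Ern2 was at 172, 171 and 205 CPM in goblet-like cells of the Fpr2f/f libraries, against 162, 142 and 141 CPM in the Fpr2VKO libraries, again without overlap, with a log2 fold change of -0.34 ± 0.12 and an adjusted p of 0.466. Tff3 was at 27442, 33927 and 29228 CPM against 24787, 27667 and 23741 CPM, groups that overlapped between Fpr2f/f replicate 1 and Fpr2VKO replicate 2 (log2 fold change -0.29 ± 0.12, adjusted p = 0.643). Agr2 had an estimate of 0.06 and Retnlb one of 0.61, while Muc2, Zg16, Fcgbp, Clca1 and Rep15 lay between -0.17 and -0.07, with adjusted p-values of 0.871 to 0.963.

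**Figure D3:**
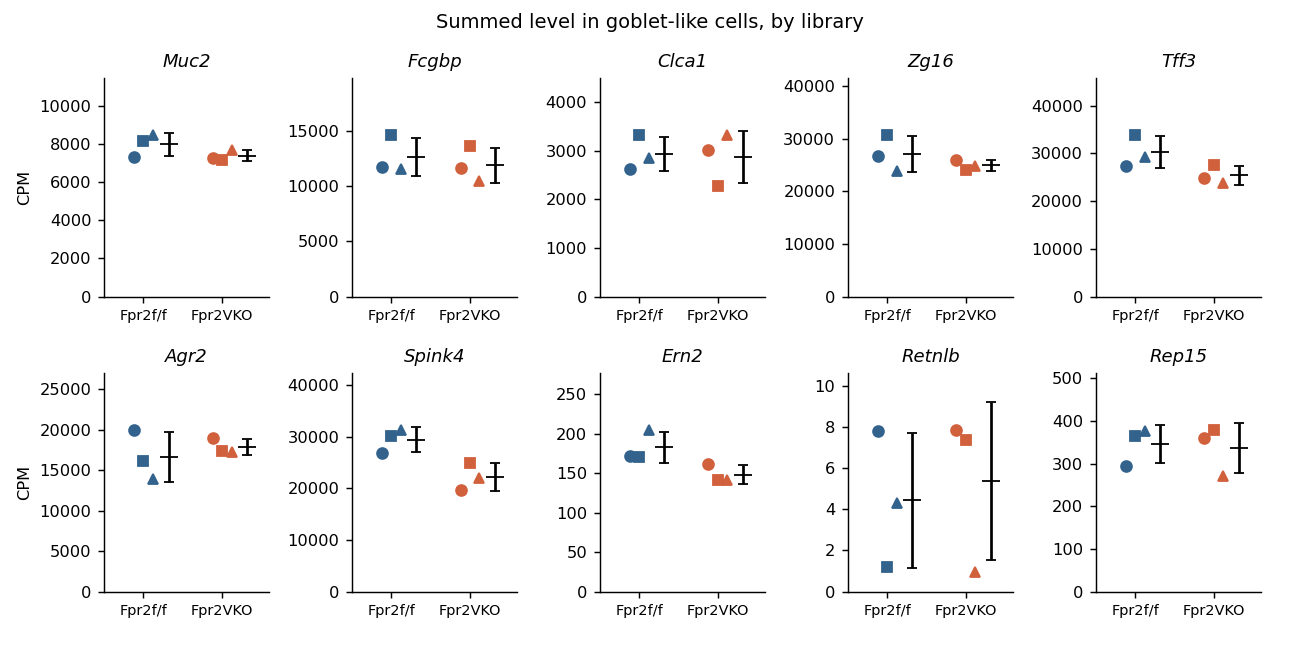
Summed level (CPM) of each gene in goblet-like cells, with circles, squares and triangles for replicates 1, 2 and 3 of each group and black bars for the mean and SD of 3 libraries. The groups do not overlap for Spink4 (29480 against 22202 CPM on average) and Ern2 (183 against 148 CPM), and overlap for the other 8 of the 10, beside 12.6% of all genes tested whose groups did not overlap.

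Some markers of other cells in the same goblet-like sums were also apart between the groups. Enterocyte markers summed to 1057 to 1261 CPM in the Fpr2f/f libraries, against 1361 to 1509 CPM in the Fpr2VKO libraries, and enteroendocrine markers to 248 to 387 and 157 to 219 CPM. Paneth markers summed to 5356 to 10342 and 4876 to 7559 CPM, which overlapped. Stem markers, at 452 to 611 and 481 to 648 CPM, overlapped, as did tuft, immune and stromal markers. Transit-amplifying markers summed to 426 to 708 and 613 to 785 CPM, which also overlapped. Of the thinned goblet-like cells, those bearing these markers, as defined above, were 18.3%, 24.2% and 18.9% in the Fpr2f/f libraries. They were 25.1%, 20.8% and 27.6% in the Fpr2VKO libraries, shares that overlapped. Spink4 in marker-bearing cells averaged 65.1% of its level in the other goblet-like cells. The part of these markers and cells in the Spink4 and Ern2 values was not tested.

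In Paneth-like cells Spink4 was at 19428, 18278 and 21979 CPM in the Fpr2f/f libraries, against 12459, 13751 and 12855 CPM in the Fpr2VKO libraries, without overlap (log2 fold change -0.52 ± 0.24, adjusted p = 0.632 in edgeR's test). Clca1 was also without overlap, at a mean of 13.8 ± 4.10 against 6.99 ± 2.50 CPM, far below its free RNA level in both groups. These were 2 of the 9 genes tested there, beside 7.06% of all 9213 genes tested whose groups did not overlap, or 4.75% with Fpr2VKO lower. Estimates were below 0 for 9 of the 9, with a median log2 fold change of -0.37, beside 50.8% of all genes and a median of -0.01. Retnlb was too low for the test, and none of the 9 other genes passed there, where 10 of 9213 genes, or 0.109%, did, and 1 had an unadjusted p under 0.05, while DESeq2 called none of the 9 as well, beside 0.0977% of genes. Clca1 passed without the filter on low counts, where 53 of 24280 genes did, and without Fpr2VKO replicate 2, where 16 of 9509 did. Clca1 and Fcgbp passed with the replicate number as a block, where 57 of 9213 genes did. Clca1 was at 0.0928 and Fcgbp at 0.176 times free RNA in Paneth-like cells, where pairing by number was not checked. The Paneth-like cells of the groups differed in depth, with a median of 7103 to 13660 UMIs per library in Fpr2f/f and 22139 to 47108 in Fpr2VKO, and the class joined a cluster of 508 cells with a median of 6153 UMIs and one of 451 cells with a median of 34399. Its part in the difference was not tested.

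Single Paneth-like cells differed in how much mucus RNA they held. In 115 of the 959 the 10 genes held at least 4% of UMIs, a limit chosen after the values were seen, with 26 cells between 3% and 5%. Because Spink4 made up most of those UMIs, this choice picks cells for high Spink4, and nothing about the group difference of Spink4 can be read from it. The set was 23.5%, 7.97% and 27.8% of Paneth-like cells in the Fpr2f/f libraries, against 7.84%, 8.96% and 3.61% in the Fpr2VKO libraries, shares that overlapped.

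The same cells were unlike the other Paneth-like cells in genes outside the 10, picked here after their values were seen. Ccl9, a chemokine, was at 1013 to 2544 CPM in them and at 84.3 to 186 CPM in the others. Rnase1, a secreted ribonuclease, was at 1186 to 4052 against 157 to 665 CPM, and Mmp7, the protease that activates Paneth defensins, at 4431 to 8491 against 1770 to 2349 CPM. Lyz1, the Paneth lysozyme, overlapped at 25735 to 58861 against 42026 to 66992 CPM. Defa24, a defensin, was lower, at 79771 to 170037 against 199862 to 241292 CPM. Of the mucus genes, Muc2 was at 1487 to 3611 CPM in these cells and Tff3 at 3600 to 12467 CPM, against 393 to 630 and 626 to 980 CPM in the others. Fcgbp was at 339 to 2065 against 25.9 to 67.7 CPM and Clca1 at 18.8 to 121 against 4.87 to 13.4 CPM, while Zg16 overlapped at 34.9 to 2766 against 20.6 to 110 CPM. Since the 10 genes chose these cells, their levels here describe the choice. In the remaining Paneth-like cells Ern2 was at 6.22 to 11.4 CPM, below free RNA in 3 of 6 libraries. The same limit set which cells remained, so no group difference can be read from them. Agr2 was at 414 to 815 CPM in them, below free RNA in 4 of 6 libraries, whereas Muc2 was above it in 6 of 6. The part of doublets in this set was not tested. Under other settings, clusters with Rnase1 and Mmp7 among their leading genes stood apart. They were named Paneth-like without alignment (131 cells), with the 10 genes in clustering (110) and with doublets kept (309). At a mitochondrial limit of 40% such a cluster of 163 cells had all 13 goblet markers higher and was left unnamed. How many of the cells were the same was not counted.

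**Figure D4:**
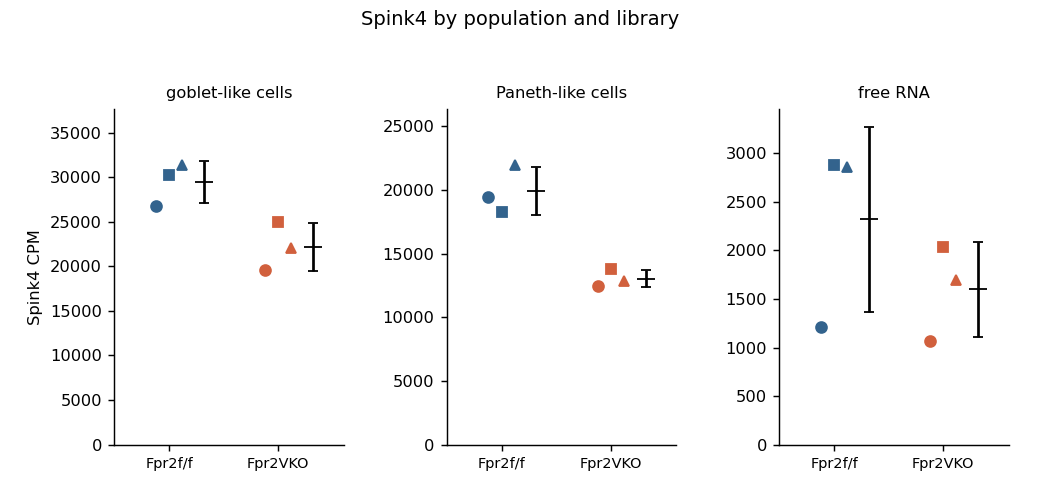
Spink4 level (CPM) by library in goblet-like cells, Paneth-like cells and free RNA, with circles, squares and triangles for replicates 1, 2 and 3 and black bars for the mean and SD of 3 libraries. The groups are apart in goblet-like and Paneth-like cells. In free RNA they overlap, and each Fpr2VKO library lies below the Fpr2f/f library of the same number.

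Spink4 was also without overlap in stem-like cells (427 ± 68.9 against 241 ± 46.4 CPM) and enterocyte-like cells (269 ± 156 against 129 ± 48.1 CPM). These levels were 0.186 and 0.107 times free RNA, and the share of all genes apart in these classes was not counted. The groups overlapped for Spink4 in enteroendocrine-like, tuft-like and transit-amplifying-like cells. Zg16 was also without overlap in stem-like and enterocyte-like cells, and Agr2 in enterocyte-like cells, each with Fpr2VKO lower. In enterocyte-like cells the median depth per library was 1946 to 3380 UMIs in Fpr2f/f and 4480 to 15778 in Fpr2VKO. The part of depth in these values was not tested. In free RNA Spink4 was at 1216, 2884 and 2859 CPM in the Fpr2f/f libraries, against 1069, 2036 and 1691 CPM in the Fpr2VKO libraries. The groups overlapped, and within each same-numbered pair the Fpr2VKO library was lower. None of the 9 genes tested there passed in edgeR's test, where 3 of 15226 genes, or 0.0197%, did, and none had an unadjusted p under 0.05. Same-numbered libraries deviated together in free RNA, a pairing read from these same counts and not from the labels. With the number as a block the count of all genes called rose to 714, or 4.69%, and that of the 9 genes stayed at 0. In that fit Spink4 had a log2 fold change of -0.37 ± 0.13 with an adjusted p of 0.0975, Rep15 one of -0.47 ± 0.16 (0.105) and Tff3 one of -0.31 ± 0.12 (0.118). Like Spink4, Rep15, Tff3 and Agr2 were lower in 3 of 3 pairs, in CPM without the normalization of the fit. For Agr2 the difference in pair 1 was -12.0 CPM, and its estimate in the fit by group alone was slightly above 0. How many of all genes were lower in 3 of 3 pairs was not counted, so nothing about these genes is read from that count. DESeq2 also called 0 of the 9, beside 0.867% of genes. Estimates were below 0 for 8 of the 9 genes, with a median of -0.30 on the log2 scale, beside 49.0% of all genes tested and a median of 0.01.

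Over all epithelial cells together none of the 10 genes passed in edgeR's test or in DESeq2, where 3 of 16577 genes, or 0.0181%, passed in edgeR and 108, or 0.652%, in DESeq2, and none had an unadjusted p under 0.05. Outside goblet-like cells the count was also 0 of 10 in both tools, beside 0.0184% of genes in edgeR and 0.625% in DESeq2, with 1 at an unadjusted p under 0.05, Clca1 (log2 fold change -0.47 ± 0.19, adjusted p = 0.538). In sums over mixed cells, fewer cells of a type and less RNA per cell cannot be told apart. Retnlb had the largest estimates, -1.65 over all epithelial cells and -2.86 outside goblet-like cells, and without Fpr2f/f replicate 3, which held most of its UMIs, the estimate over all epithelial cells was 0.65.

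**Figure D5:**
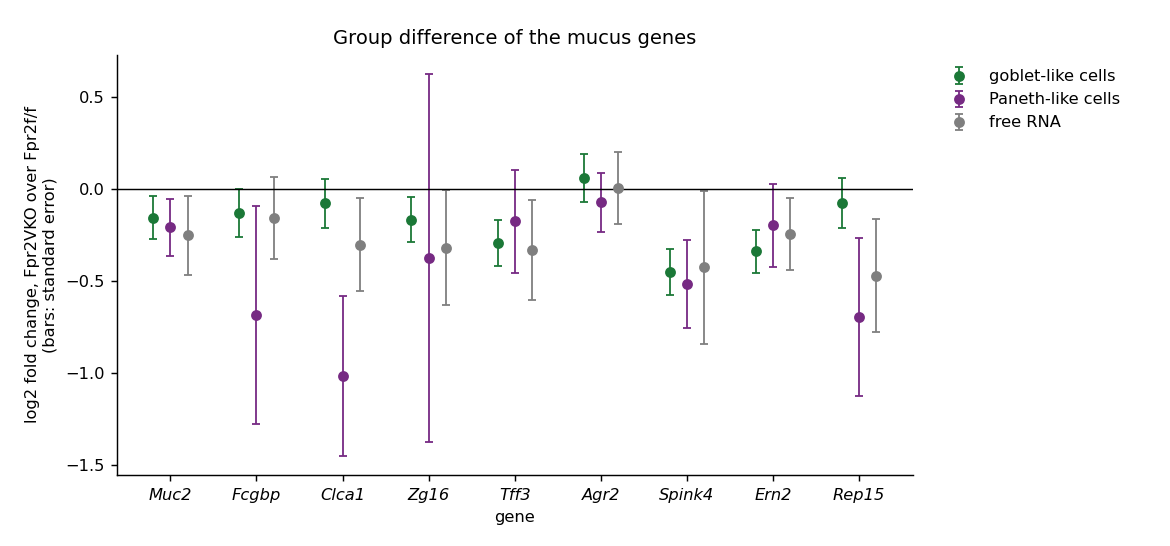
Log2 fold change of each gene, Fpr2VKO over Fpr2f/f, with its standard error in goblet-like cells, Paneth-like cells and free RNA. Most estimates lie below 0, Agr2 lies at 0.06, -0.07 and 0.01, and none passed an adjusted p of 0.05 in edgeR's test by group alone.

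Other genes of the mucus pathway were read in goblet-like cells by list, and none passed in either direction. Of 25 genes of mucin glycosylation and sulfation 21 were tested, with 11 estimates above 0 and 10 below and a median of 0.05. Of 18 genes of other mucins and mucus-layer proteins 11 were tested, with 8 below 0 and a median of -0.17, and the largest estimates with enough counts were those of Itln1 (-0.30), a lectin, and Sval1 (-0.29). All 23 genes of secretory-protein folding and traffic were tested, with a median of -0.02 and 14 below 0. For granule release and ion transport 12 of 13 were tested, with a median of -0.08.

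The list of goblet fate genes had 9 of 12 estimates above 0 and a median of 0.12, beside a median of 0.00 over all genes. Dll1, a Notch ligand of young secretory cells, was at 141, 147 and 124 CPM in goblet-like cells of Fpr2f/f libraries and at 160, 223 and 254 CPM in Fpr2VKO libraries, without overlap (log2 fold change 0.58 ± 0.14, adjusted p = 0.116). Hes1, a Notch target that opposes secretory fate, was at 153, 117 and 164 CPM against 117, 97.1 and 113 CPM, also without overlap by a narrow margin (-0.44 ± 0.13, adjusted p = 0.277). Both were named as the largest estimates of their list, and groups were apart in either direction for 12.6% of all 10408 genes tested. Over all epithelial cells the same lists also had 0 genes called in either direction.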

How the data were processed

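Droplet single-cell RNA sequencing (MobiNova-100) was run on EpCAM-sorted ileal crypt cells in 6 libraries, 3 Fpr2f/f and 3 Fpr2VKO, grouped by the labels. The authors aligned reads to mm10 with MobiVision and deposited raw UMI counts for all 2359296 barcodes and 32285 genes. They named Seurat 4.0 in their processing notes, applied after these files, and the annotation version was not given in the sources used here.

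Cells needed at least 1000 UMIs, 500 genes and at most 20% mitochondrial UMIs. Doublets were removed at 0.8% per 1000 cells. From 2000 variable genes without the 10 genes, 30 components were aligned by mutual nearest neighbours (20) and clustered (leidenalg 0.10.2, resolution 1, 20 neighbours, Python 3.11.15). Naming a cluster needed at least 3 higher markers and a mean log2 fold of at least 0.5, with a further limit of 10% of cells. Some clusters with at least 3 higher markers stayed unnamed, and unnamed cells, 4663 in number, were the largest class. Naming markers excluded the 10 genes. Library depth was 90142126 to 189516114 UMIs.

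Summed UMI counts per library and class were tested with edgeR 4.0.16 (R 4.3.3, TMM, filterByExpr, robust quasi-likelihood, Benjamini-Hochberg over all genes tested, threshold 0.05). CPM was the gene's share of the summed UMIs, scaled to 1000000. Shares used an exact permutation test. The test was tried on simulated counts first. Alternatives were DESeq2 1.42.0, its size factors, no count filter, a replicate block, each library left out, a mitochondrial limit of 40%, at least 2000 UMIs, doublets kept, no alignment, clustering with the 10 genes, and, added after the data were seen, no barcodes shared by libraries. Same-numbered libraries deviated together in free RNA (correlations 0.29, 0.25 and 0.25 over 15226 genes). A pairing by number was thus read from the data that were tested and not from the labels. In cells not every same-numbered pair was over 0.1.

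The members, marker lists and pathway lists were chosen with earlier results of these data known. Named genes were the 10 genes, pathway genes called or among the 2 largest estimates of a list with at least 20 CPM, and the 10 genes of most like pattern. Intervals and counts cover the spread between libraries only.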

Additional observations from a re-analysis of the deposited data

How the results depend on the processing

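Over all epithelial cells, in epithelial cells outside the goblet-like class and in free RNA the count of the 10 genes called stayed at 0 under every alternative run. In goblet-like cells it was 1 with DESeq2 and 1 with the replicate block, Spink4 both times (log2 fold change -0.45 and -0.45, adjusted p = 0.0326 and 0.00253), and 0 in each fit that left out a library. In Paneth-like cells it was 1 without the filter on low counts (Clca1, with 53 of 24280 genes called). It was 2 with the replicate block (Fcgbp and Clca1, with 57 of 9213 called). When each library was left out it was 0 to 1, the 1 being Clca1 without Fpr2VKO replicate 2 (16 of 9509 called). Same-numbered correlations in goblet-like cells were 0.03, 0.06 and 0.13, lower than in free RNA. Over all epithelial cells they were -0.05, -0.04 and 0.27. There Fpr2f/f replicate 1 with Fpr2VKO replicate 2 was at 0.16, and Fpr2f/f replicate 2 with Fpr2VKO replicate 1 at 0.17. Pairing of the cell libraries by replicate number was therefore not settled. The block changed no other call of the 10 genes, and it raised the count of all genes called from 17 to 39 in goblet-like cells and from 10 to 57 in Paneth-like cells. The goblet-like share differed by 0.796 percentage points between groups (Fpr2VKO minus Fpr2f/f), by 0.292 to 1.46 when each library was left out (0.292 and 1.30 with Fpr2f/f replicate 2 or 3 removed, and 0.452, 0.476 and 1.46 with Fpr2VKO replicate 1, 2 or 3 removed), by 1.81 at a minimum of 2000 UMIs, by 1.34 without alignment of libraries, by 0.796 within same-numbered pairs (the replicate block, exact p = 0.75), and by -0.730 at a mitochondrial limit of 40%. Leaving out single libraries turned the sign of some log2 fold changes that had not passed. Over all epithelial cells their ranges were -0.30 to 0.071 for Muc2, -0.31 to 0.21 for Fcgbp, -0.28 to 0.19 for Clca1, -0.31 to 0.15 for Zg16, -0.43 to 0.015 for Tff3, -0.026 to 0.25 for Agr2, -2.19 to 0.65 for Retnlb and -0.28 to 0.13 for Rep15. Agr2 was at -0.012 there at a mitochondrial limit of 40%. In goblet-like cells the ranges were -0.25 to 0.0091 for Fcgbp, -0.18 to 0.056 for Clca1, -0.067 to 0.21 for Agr2, -0.026 to 1.24 for Retnlb and -0.18 to 0.070 for Rep15. Spink4 kept its sign under every alternative, from -0.56 to -0.37 in goblet-like cells when each library was left out. Leaving out the cells whose barcode was shared by libraries, an alternative chosen after seeing the data, changed no call of the 10 genes and gave a share difference of 0.696 percentage points. Other causes of these shifts were not tested. Counts of Retnlb were low, and its estimates turned sign with single libraries left out.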
